A study of Mus musculus with 768 samples.

Results

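Of 377 single muscle stem cells of the tibialis anterior muscle, 125 held at least 1 read of *Mmp2* and 252 held none, and the 125 cells were compared with the 252 across genes within each mouse. The classes were thus chosen by the reads of *Mmp2* in each cell, and all values of *Mmp2* itself are given as a description. The cells came from 4 young mice (Y4, Y5, Y7 and Y8, labelled 2 months) and 2 old mice (O1 and O5, labelled 24 months). All were males of a C57BL/6;DBA2 F1/JRj background carrying the *Tg:Pax7-nGFP* transgene (strain label MGI:5308730), in which regulatory sequence of *Pax7* drives a nuclear green fluorescent protein. Muscles were digested with collagenase and trypsin, the cells were frozen, and after thawing the brightest 10% of GFP-positive cells were sorted, so that both classes are nGFP Hi cells and not muscle stem cells in general. Of each cell the mRNA was amplified by Smart-seq2 with 25 PCR cycles within scM&T-seq, a method that reads the transcriptome and the DNA methylome of one cell.

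*Mmp2* encodes gelatinase A, a secreted matrix metalloproteinase that cleaves type IV collagen of basement membranes, denatured collagens and many other extracellular proteins. It is released as an inactive zymogen, and its classical activation takes place on the cell surface, where the membrane-bound protease MMP14 cleaves a zymogen tethered through the inhibitor TIMP2. Muscle stem cells lie between the fibre membrane and a basement membrane of laminin and type IV collagen, so that this enzyme acts on the material of their niche. In the deposited table *Mmp2* starts at position 92827328 of chromosome 8 (GRCm38), and GENCODE M21 gives a protein-coding gene on the plus strand from 92827291 to 92853420.

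A cell had from 101755 to 626142 reads on genes. Levels in single cells are given as RPM, the reads of a gene scaled to a common number of reads per cell. In the cells without *Mmp2* reads, 3 reads, the upper limit that a count of 0 allows, correspond to 5.26 to 29.4 RPM, and 7 of the 125 cells with reads had a level at or below 29.4 RPM. Intervals and limits cover counting error only, because the libraries have no molecular identifiers and PCR copies of a molecule are read repeatedly. By the column names, lane 2 of the sequencer held Y7, O1 and O5, and lane 3 the remaining young mice. The sorted population was checked by its markers. *Pax7* was read in 80% to 100% of the cells with *Mmp2* reads in every mouse and in 82.1% to 96.9% of the cells without. Of 22 genes listed for fibro-adipogenic cells, a mesenchymal population of muscle rich in *Mmp2*, *Pdgfra*, *Dcn* and *Lum* were among 6 with no read in either class. The other 16 had reads, and *Dpt*, *Gsn* and *Serping1* were read in 76.9%, 82.8% and 90.98% of the 377 cells.

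The share of cells with *Mmp2* reads differed widely between mice. It was 10 of 60 cells in Y4 (16.7%, exact 95% binomial interval 8.29% to 28.5%), 4 of 44 in Y5 (9.09%, 2.53% to 21.7%), 27 of 74 in Y7 (36.5%, 25.6% to 48.5%) and 20 of 75 in Y8 (26.7%, 17.1% to 38.1%). In the old mice it was 28 of 56 in O1 (50.0%, 36.3% to 63.7%) and 36 of 68 in O5 (52.9%, 40.5% to 65.2%). Both old mice thus lay above all 4 young mice, with a mean of 51.5% ± 2.08 (SD, n = 2) against 22.2% ± 11.9 (SD, n = 4), and Y7, which shared lane 2 with them, was the highest young mouse. Within lane 2 the young share was 36.5% (1 mouse) and the old shares were 50.0% and 52.9%. Lane 3 held young mice only, and no test is given, because *Mmp2* chose the classes.

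Among the cells with reads, most held many. The median was 180 reads and the highest cell had 1767. Only 4 cells lay just inside the rule with 1 read, 10 cells had 1 to 9 reads, 32 had 10 to 99, and 83 had at least 100, 4 of them at least 1000. The median level in cells with reads was 481 RPM in Y4, 412 in Y5, 635 in Y7, 411 in Y8, 1233 in O1 and 1030 in O5, so that the old mice were again above every young mouse. The highest cells reached 4673 RPM in a young mouse (Y7) and 6740 RPM in an old mouse (O5). Averaged over all cells of a mouse, zeros included, *Mmp2* had 34.4 to 359 RPM in the young mice and 758.5 and 853 RPM in the old mice. A single cell held 57.9% of the *Mmp2* reads of Y5, and 11.2% to 26.5% in the other 5 mice.

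**Figure D1:**
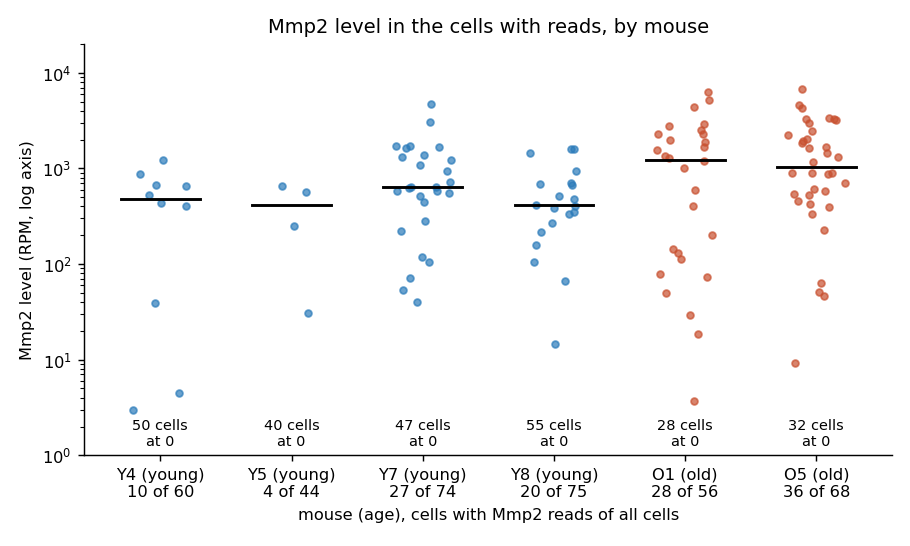
Level of *Mmp2* in each cell with at least 1 read (RPM, log axis) by mouse, young in blue and old in orange; the black bar is the median of these cells, and the number of cells at 0 stands at the foot. The old mice have more cells with reads (28 of 56 and 36 of 68) and higher medians (1233 and 1030 RPM) than every young mouse.

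Genes detected were fewer in cells with *Mmp2* reads in 4 of 6 mice, without passing the test. The median number of genes with a read, *Mmp2* left out, was 1772 with *Mmp2* reads against 1986 without in Y4, 1752 against 2221 in Y5, 2512 against 2368 in Y7 and 1851 against 1823 in Y8. In the old mice it was 1548 against 1642 in O1 and 1700 against 2044 in O5. The difference averaged -158 genes ± 230 (SD, n = 6 mice, exact two-sided sign-flip permutation test p = 0.1875, the smallest possible being 0.03125). The young mice averaged 1972 genes with and 2099 without *Mmp2* reads, and the old mice 1624 and 1844. After each cell was thinned to 100000 reads the mean difference was -152 genes (exact permutation p = 0.1875, n = 6). The median number of reads per cell differed in both directions between mice, with a mean difference of -6591 reads ± 62259 (SD, n = 6, exact permutation p = 0.844) that became positive without Y5 or without O5.

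**Figure D2:**
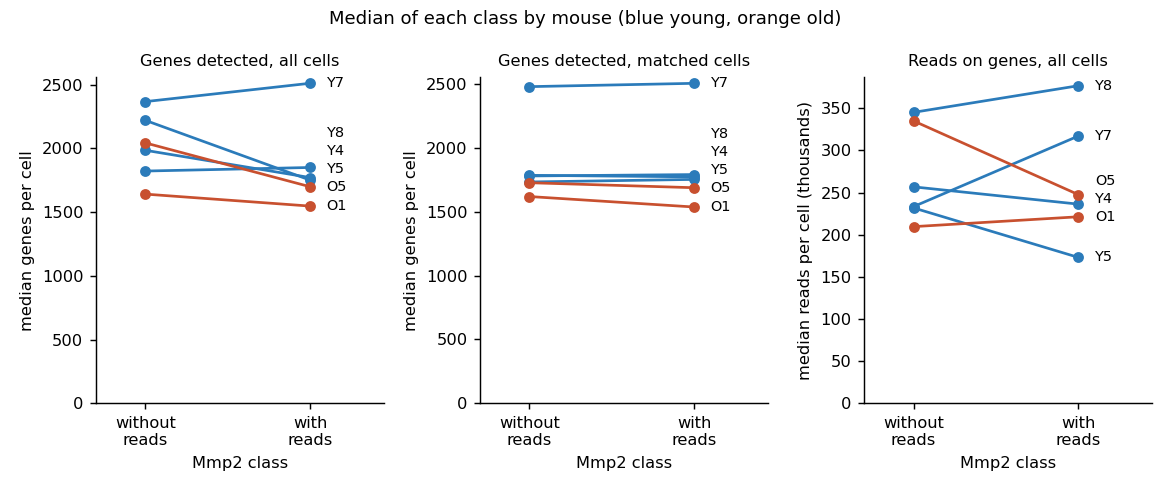
Median number of genes detected per cell in all cells (left) and in the cells matched on this number (middle), and median reads on genes (right), for cells without and with *Mmp2* reads; each line is 1 mouse, young in blue and old in orange. In all cells the right point lies lower in 4 of 6 mice, and in the matched cells both points lie close together, as the matching sets.

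Because of these differences the comparison was repeated on pairs of 1 cell with and 1 cell without *Mmp2* reads of the same mouse, matched within 100 genes detected, which kept 95 pairs (57 of young and 38 of old mice). The matched medians averaged 1840 genes with and 1853 without *Mmp2* reads. Similarity of a cell to young cells of the other mice, a Spearman correlation across genes, was 0.381 with and 0.382 without *Mmp2* reads (mean of 6 mice, exact permutation p = 0.781, n = 6). Ribosomal protein genes took 4.62% of the reads of a cell with *Mmp2* reads and 4.53% of one without (means of 6 mouse medians), a difference of 0.092 percentage points ± 0.956 (SD). Early response genes, induced within minutes of tissue dissociation, took 2.32% and 2.16%, with a difference of 0.156 points ± 0.791 (SD). Both differences were smaller than their spread between mice.

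To ask which genes differ, reads were added up by mouse and class, and both classes were tested with the quasi-likelihood F test of edgeR with the mouse as a block. Of 9586 genes tested, 0 (0.0%) passed a Benjamini-Hochberg adjusted p of 0.05, and the smallest adjusted p of edgeR was 0.990. At an unadjusted p under 0.05 there were 385 genes, 20 higher in cells with *Mmp2* reads (0.209% of the genes tested) and 365 lower (3.81%). The filter on low counts keeps a gene that passes in the sums of 1 class alone, and the sums without *Mmp2* reads were the larger in every mouse. How far this bears on the uneven counts was not tested. The fold changes as a whole leaned the same way, since 7409 genes (77.3%) had a log2 fold change below 0, with a median of -0.76. This median was -1.11 in the young mice and -0.08 in the old mice, and RLE in place of TMM factors moved that of all 6 mice to -0.65. In young and in old mice this median was 0.0089 and -0.073 in the matched cells, and -0.083 and -0.096 by limma on the mean log2(RPM + 1) of the cells. Without Y5, whose class with *Mmp2* reads holds 4 cells, it was -0.39 in all mice and -0.58 in the young mice. It was -0.41 over the 5898 genes read in at least 10% of cells, -0.23 without the mouse block and -0.09 by limma on the mean log2(RPM + 1) of the cells. The summed class with *Mmp2* reads held 774762 to 8868229 reads and the class without held 6565794 to 19032376, and the classes were closest in cell number in the old mice. With the same number of matched cells in each class the median was -0.03, against -0.58 in all cells for the 7544 genes tested in both fits, and 54 genes were higher and 45 lower at an unadjusted p under 0.05, with 0 of 7546 past the adjusted threshold. The median beside which a single gene or list is read thus depends on the mice and genes taken.

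DESeq2 on the same sums called 533 genes (21 higher, 512 lower), and 136 on the matched cells (71 higher, 65 lower). The counts of the edgeR and DESeq2 fits thus differ, and a call by DESeq2 alone is named as such. Of the 72 genes whose fitted changes are described, DESeq2 called 9 on all cells, and outside DESeq2 their adjusted p ran from 0.064 to 1.00 over the alternative fits. The sums scattered widely between mice, with a median dispersion of 1.68. On simulated sums with this dispersion edgeR recovered 0 of 200 genes changed by 1 or by 3 on the log2 scale, so that the count of 0 does not show that no gene differs. Every simulated gene had this dispersion. Genes read in most cells had small errors (SE of the log2 fold change 0.14 for *Sdc4* and 0.17 for *Fam132b*), and the recovery of such genes was not simulated apart.

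**Figure D3:**
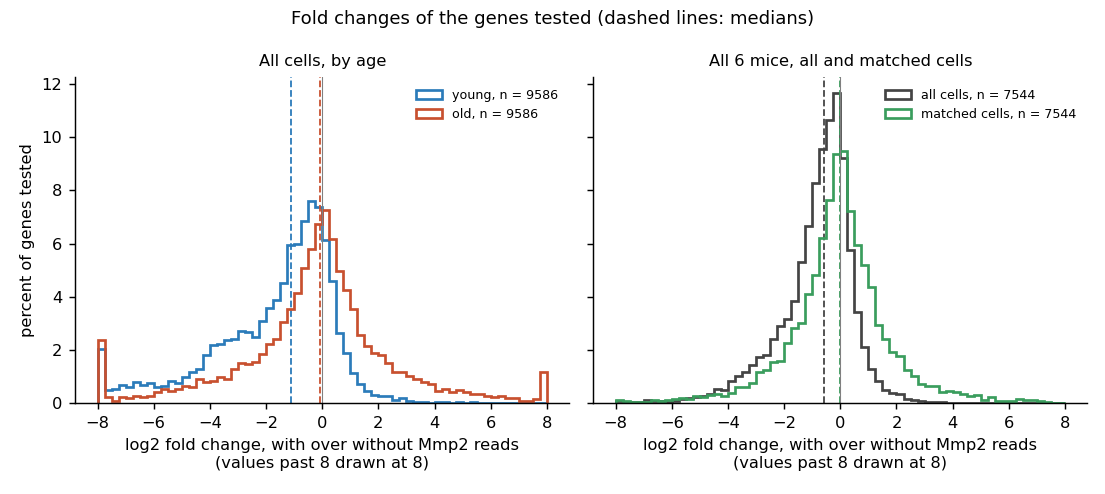
Distribution of the log2 fold changes (with over without *Mmp2* reads) as percent of the genes tested: young and old mice on all cells (left), and all 6 mice on all cells and on the matched cells (right; only genes tested in both); dashed lines are medians and values past 8 in either direction are drawn at 8. The young curve lies to the left (median -1.11), the old curve near 0 (-0.08), and in the right panel, over 7544 genes, the median is -0.58 in all cells and -0.03 in the matched cells.

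None of the genes with the lowest unadjusted p passed the threshold, and their values are given as levels. In the direction of higher levels these were *Fam132b*, *Stard4*, *Adarb1*, *Pde4b* and *Glul*. *Fam132b* encodes erythroferrone, a secreted hormone that lowers hepcidin. Its summed level in CPM, the same scale for the reads added up over the cells of a class, was 1605 with against 1110 without *Mmp2* reads in Y4, 1877 against 988 in Y5, 2623 against 1515 in Y7, 2550 against 1480 in Y8, 2961 against 2588 in O1 and 1975 against 1138 in O5. It was higher in all 6 mice, with a log2 fold change of 0.67 ± 0.17 (SE; edgeR unadjusted p = 0.00178, adjusted p = 0.990), and the cells with a read were 12.6 percentage points ± 10.3 (SD, n = 6) more frequent. On the matched cells its log2 fold change was 0.56. The gene overlaps *Ilkap* on the other strand.

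*Stard4*, a carrier of cholesterol within the cell, was also higher in all 6 mice. Its level was 86.1 against 9.19 CPM in Y4, 481 against 44.5 in Y5, 337 against 90.4 in Y7, 196 against 176 in Y8, 162 against 19.8 in O1 and 246 against 85.4 in O5. The gap was small in Y8 and large in the other mice, and the 481 CPM of Y5 came from 1 cell of 4 (log2 fold change 2.24 ± 0.61, SE; edgeR unadjusted p = 0.00359, adjusted p = 0.990, DESeq2 adjusted p = 0.00236). The share of cells with a *Stard4* read was higher in 5 mice and went the other way in O5 (7 of 36 cells with against 7 of 32 without *Mmp2* reads). *Glul*, glutamine synthetase, and *Adarb1*, an RNA-editing adenosine deaminase, were higher in all 6 mice too, with log2 fold changes of 0.57 ± 0.21 and 1.04 ± 0.33 (SE). *Glul* had 0.78 in the young and 0.17 in the old mice (edgeR unadjusted p of the difference 0.17), and its share of cells was lower in Y7 and O1. The share of cells with an *Adarb1* read differed by -0.29 points, with 3 mice lower and 3 higher, and by -10.5 points in the matched cells. *Pde4b*, a cAMP phosphodiesterase, was higher in 5 of 6 mice (0.54 ± 0.18, SE).

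In the direction of lower levels the genes were *Ints9*, *Igfbp5*, *Gm11651*, *Col8a1* and *Ctgf*. *Ints9*, *Gm11651* and *Col8a1* had no read with *Mmp2* reads in most mice. They passed the filter on low counts through the class without *Mmp2* reads, where they are high. Their low p, their ratios and any call by DESeq2 are therefore a description. *Igfbp5* encodes a secreted binding protein of insulin-like growth factors that muscle stem cells express. It had 1040 CPM with against 2565 without *Mmp2* reads in Y4, 683 against 1193 in Y5, 576 against 1344 in Y7, 565 against 1021 in Y8, 907 against 1606 in O1 and 1627 against 2330 in O5. The level was lower in all 6 mice, with a log2 fold change of -0.92 ± 0.19 (SE; edgeR unadjusted p = 0.000448, adjusted p = 0.990), beside medians of -0.76 over all genes and -0.41 over those read in at least 10% of cells, and of -0.58 on the matched cells, where the median of all genes was -0.03. The share of cells with an *Igfbp5* read differed by -2.1 points ± 10.7 (SD, n = 6), with 3 mice lower and 1 higher, and by 0.268 without Y4 and 0.106 without O5.

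*Ctgf*, which encodes connective tissue growth factor, a matricellular protein, was lower in all 6 mice. It had 12.4 against 232 CPM in Y4, 0 against 222 in Y5, 7.42 against 133 in Y7, 112 against 176 in Y8, 16.5 against 343 in O1 and 187 against 1270 in O5 (log2 fold change -3.90 ± 0.90, SE; edgeR adjusted p = 0.990, DESeq2 adjusted p = 5.14e-05). Y8 stands out by a small gap, and there the share of cells with a read went the other way (30% with against 10.9% without *Mmp2* reads). The gene overlaps *Gm15270* on the other strand, and the use of strand in counting is not given in the sources used here.

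*Col8a1*, a short-chain collagen of basement membranes, had no read in the cells with *Mmp2* reads of Y5, Y7, Y8 and O1, where the other cells had 194, 52.1, 85.5 and 1.48 CPM. It had 0.749 against 20.98 CPM in Y4 and 166 against 662 in O5. In all, 4 of 125 cells with *Mmp2* reads (3.2%, exact interval 0.879% to 7.99%) and 41 of 252 cells without (16.3%, 11.9% to 21.4%) had a *Col8a1* read, a count that pools mice of unequal class sizes. DESeq2 called *Col8a1* (adjusted p = 4.85e-06). *Ints9*, a subunit of the Integrator complex, and *Gm11651*, an antisense transcript of *Ace*, had 1 read each in the class with *Mmp2* reads, in 1 of 125 cells, against 21 and 24 of 252 cells, and DESeq2 called *Ints9* (adjusted p = 1.02e-08). Their ratios of RPM, 0.000593 (exact counting interval 1.5e-05 to 0.00331) and 0.00541 (0.000137 to 0.0303), carry counting error only, and a single cell held 39.1% of the *Gm11651* reads of the class without.

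**Figure D4:**
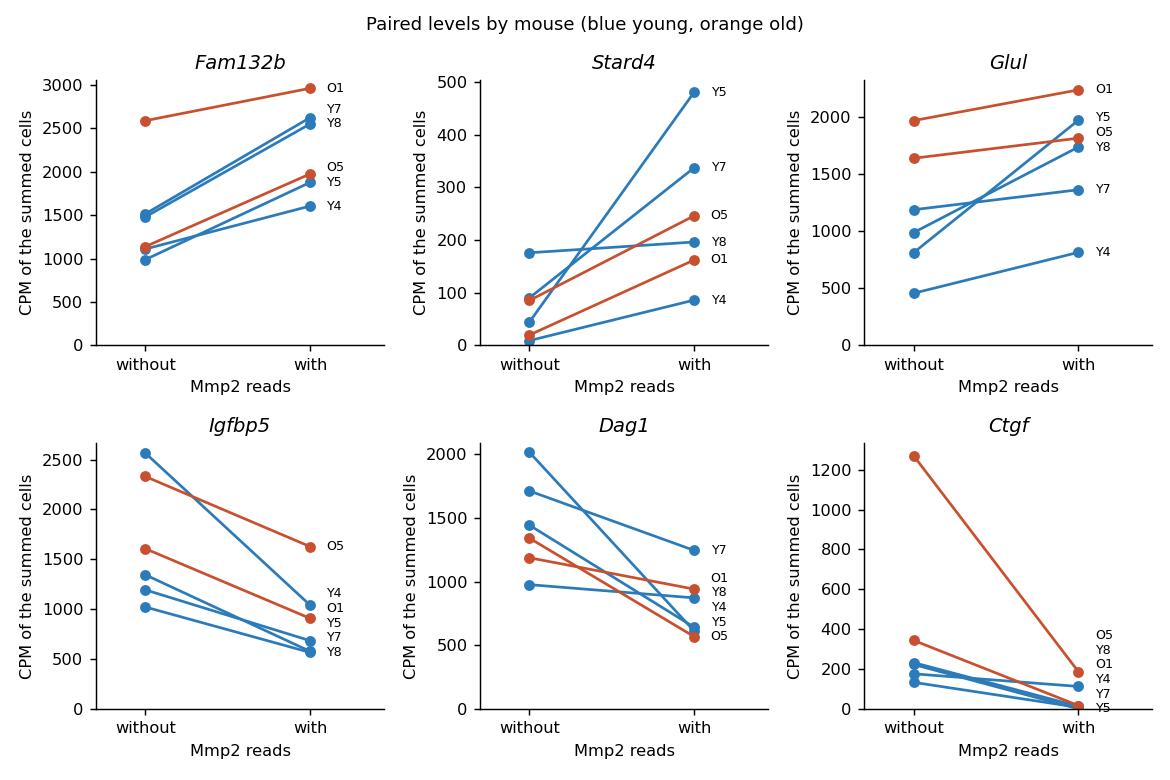
Summed level (CPM, linear axes from 0) of 6 genes in cells without and with *Mmp2* reads; each line is 1 mouse, young in blue and old in orange. *Fam132b*, *Stard4* and *Glul* are higher and *Igfbp5*, *Dag1* and *Ctgf* lower in the cells with *Mmp2* reads in all 6 mice, with none past edgeR's adjusted threshold.

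The partners of the enzyme were examined by role. The activator *Mmp14* was read in few cells of both classes, with 99.6 against 62.9 CPM in Y4, 14.3 against 145 in Y5, 50.8 against 162 in Y7, 156 against 112 in Y8, 47.1 against 140 in O1 and 105 against 263 in O5. The values overlap, being lower with *Mmp2* reads in 4 of 6 mice, and the log2 fold change of -1.11 ± 0.73 (SE) had the other sign in the matched cells (0.73). *Timp2*, which inhibits metalloproteinases and also tethers the *Mmp2* zymogen, had 799 against 734 CPM in Y4, 428 against 722 in Y5, 685 against 887 in Y7, 578 against 486 in Y8, 345 against 797 in O1 and 757 against 950 in O5. It was lower in 4 of 6 mice (log2 fold change -0.38 ± 0.27, SE), and in both old mice, where its share of cells with a read differed by -18.8 points. *Timp3*, an inhibitor bound to the matrix, had a log2 fold change of 0.29 ± 0.33 (SE), and *Furin*, a protease that processes *Mmp14*, of 0.30 ± 0.92. None of these genes had an edgeR unadjusted p under 0.05 (*Mmp14* 0.154, *Timp2* 0.187, *Timp3* 0.394 and *Furin* 0.751, adjusted p from 0.990 to 0.992).

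Of the 33 genes listed as metalloproteinases, 17 were tested, with a median log2 fold change of -1.11 beside -0.76 over all genes. At an unadjusted p under 0.05, 0 of the 17 were higher and 2 lower, beside 0.209% and 3.81% of all genes tested. Such small counts, here and in the lists below, are not read as a result about a list. *Adamts5*, an aggrecanase, was lower with *Mmp2* reads in all 6 mice, by little in Y8 (246.1 against 246.2 CPM) and by much in Y4 (7.49 against 404 CPM), with a log2 fold change of -1.90 ± 1.09 (SE). *Adamts1*, another member of that family, had -0.55 ± 0.25 and *Adamts4* 0.80 ± 0.64, and both had the other sign in one or more alternative analyses. *Adamts10*, which binds microfibrils, went the other way in 5 of 6 mice. It had 128 against 25.0 CPM in Y4, 373 against 102 in Y5, 211 against 174 in Y7, 269 against 137 in Y8, 76.5 against 220 in O1 and 516 against 240 in O5. Its cells with a read were 17.1 points ± 19.3 (SD, n = 6) more frequent, 17.3 points in the matched cells and 11.0 points without Y5.

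The 16 activators and inhibitors had 13 tested members, with a median of -0.13 and 0 genes in either direction at an unadjusted p under 0.05. List members were also named where the share of cells with a read moved one way in all 6 mice, so for these genes that direction is a description. They are *Thbs1*, *Plat*, *Smoc1*, *Col18a1*, *Col1a2*, *Tgfb2*, *Id1*, *Foxo1* and *Tagln*. Over the 5898 genes read in at least 10% of cells, 136 (2.31%) were lower in all 6 mice, and 22 in the matched cells. The thrombospondins, which bind the enzyme and clear it through endocytosis, differed from each other in their shares. The share of cells with a *Thbs1* read was lower with *Mmp2* reads in all 6 mice (mean difference -17.6 points ± 14.5, SD, n = 6), whereas *Thbs2* was read more often in 5 of 6 mice, by 10.8 points ± 10.5. In the matched cells these differences were -7.45 and 14.4 points. The level of *Thbs1* was lower in 4 of 6 mice and higher in Y8 and O5 (7679 against 5082 CPM in O5), with a log2 fold change of -1.025 ± 0.799 (SE). *Thbs2* had 1051 against 229 CPM in Y4, 114 against 204 in Y5, 505 against 247 in Y7, 283 against 275 in Y8, 3971 against 2036 in O1 and 1325 against 626 in O5 (log2 fold change 0.76 ± 0.36, SE; edgeR unadjusted p = 0.0566, adjusted p = 0.990). In the plasminogen system, an extracellular protease cascade, all 8 tested genes had a log2 fold change below 0 (median -0.97, 0 genes at an unadjusted p under 0.05), beside 77.3% of all genes tested. *Plat*, tissue plasminogen activator, was not read in the cells with *Mmp2* reads of Y4 and Y5, which number 10 and 4, and its share of cells was lower in all 6 mice (-15.4 points ± 10.2, SD, n = 6). *Plaur*, the urokinase receptor, was read less often in 5 of 6 mice (-10.9 points ± 12.4).

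Genes of the basement membrane, a substrate of the enzyme, had fold changes centred as those of all genes, but not shares. The median difference of this list in the share of cells with a read was -4.27 points beside -1.90 over all genes, and turned to 4.27 beside -0.089 in the matched cells. Of 22 tested, 19 had a log2 fold change below 0 (86.4%, beside 77.3% of all genes), with a median of -0.77 beside -0.76 over all genes and -0.41 over those read in at least 10% of cells. At an unadjusted p under 0.05, 0 were higher and 3 lower, beside 0.209% and 3.81% of all genes tested. One of the 3 was *Dag1*, dystroglycan, the receptor that ties the cell to laminin. It had 641 against 1443 CPM in Y4, 611 against 2016 in Y5, 1245 against 1712 in Y7, 872 against 976 in Y8, 941 against 1187 in O1 and 567 against 1341 in O5. The level was lower with *Mmp2* reads in all 6 mice, with a log2 fold change of -0.85 ± 0.25 (SE; edgeR unadjusted p = 0.00591, adjusted p = 0.990) and of -0.64 in the matched cells. Its share of cells differed by -12.3 points ± 13.4 (SD, n = 6), and by -19.6 points in the old mice. *Lama2*, a chain of the laminin of muscle, was lower in level in all 6 mice (log2 fold change -0.87 ± 0.38, SE). *Smoc1*, a SPARC-related matrix protein, was read in 2.76% of the cells with and in 16.9% of those without *Mmp2* reads (means of 6 mice). The difference was -7.78 points in the matched cells, and DESeq2 called its level (adjusted p = 0.00412). The share of *Smoc1* and that of *Col18a1*, a collagen of basement membranes, were lower in all 6 mice, the trait by which both were named.

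The chains of type IV collagen, the substrate that gave the enzyme its early name, differed by less than their error. *Col4a1* had a log2 fold change of -0.59 ± 0.66 and *Col4a2* of -0.18 ± 0.44 (SE), and both were positive in the matched cells (0.40 and 0.24). *Col5a3* had 0.15 ± 0.62, *Lamc3*, a laminin chain, -0.77 ± 1.06, and *Hspg2*, perlecan, 0.31 ± 0.34. *Itgb1*, the integrin subunit that binds laminin and collagen, had -0.11 ± 0.31 and a difference in share of cells of -6.0 points (-3.90 without O5 and 4.27 in the matched cells).

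Of 40 genes of the fibrillar matrix, 22 were tested, with a median of -0.71. At an unadjusted p under 0.05, 2 were lower and 0 higher, beside 3.81% and 0.209% of all genes tested. *Col3a1* was lower in level in 5 of 6 mice (log2 fold change -0.56 ± 0.25, SE), and *Bgn*, the proteoglycan biglycan, had -0.63 ± 0.31. *Col1a2*, named for a share that was lower in all 6 mice, was read in 9.67% of the cells with and 20.7% of those without *Mmp2* reads (means of 6 mice). The difference was -10.99 points ± 5.89 (SD, n = 6), and -6.43 points in the matched cells. *Sparc*, a collagen-binding protein, had -0.55 ± 0.31 (SE) and the other sign in the matched cells (0.07). Of the TGF-beta and BMP pathway, whose ligands matrix proteases can release, 30 of 37 genes were tested, with a median of -0.63. Here too 2 were lower and 0 higher at an unadjusted p under 0.05, beside the same 3.81% and 0.209%. The shares of cells with reads of the ligand *Tgfb2* and of the BMP target *Id1* were lower in all 6 mice, a trait by which both were named (-20.8 points ± 21.5 and -8.0 points ± 5.9, SD, n = 6). *Ltbp1*, which holds latent TGF-beta in the matrix, was read more often in 5 mice and as often in O1, by 10.0 points ± 9.4, though its summed level gave a log2 fold change of -0.59 ± 0.57 (SE).

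Of 40 tested genes of muscle stem cell identity and quiescence, 31 had a log2 fold change below 0 (77.5%, beside 77.3% of all genes). Their median was -0.33 beside -0.76 over all genes and -0.41 over those read in at least 10% of cells. At an unadjusted p under 0.05, 1 was higher and 2 lower, beside 0.209% and 3.81% of all genes tested. *Pax7*, which defines these cells, had 814 against 1018 CPM in Y4, 461 against 601 in Y5, 634 against 917 in Y7, 319 against 434 in Y8, 1160 against 1302 in O1 and 872 against 1029 in O5. It was lower with *Mmp2* reads in all 6 mice by a small amount (log2 fold change -0.35 ± 0.21, SE; edgeR unadjusted p = 0.13, adjusted p = 0.990). The myogenic factor *Myf5* was also lower in all 6 mice (-0.75 ± 0.42) and *Myod1*, the factor of committed and activated cells, had 0.29 ± 0.31. *Vcam1*, an adhesion molecule of muscle stem cells that was not used in this sort, was lower in all 6 mice in level (-0.61 ± 0.26) but not in share. It had 600 against 818 CPM in Y4, 539 against 2119 in Y5, 1361 against 1442 in Y7, 1425 against 1959 in Y8, 1536 against 1565 in O1 and 1262 against 2161 in O5.

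*Gas1*, a growth-arrest gene that modulates signalling at the cell surface, was the identity gene with an unadjusted p under 0.05 and a higher level. Its level was 1671 against 1265 CPM in Y4, 1005 against 631 in Y5, 518 against 356 in Y7, 1688 against 964 in Y8, 226 against 69.5 in O1 and 247 against 311 in O5. It was higher in 5 of 6 mice, O5 being the exception (log2 fold change 0.63 ± 0.28, SE; edgeR unadjusted p = 0.048, adjusted p = 0.990). *Calcr*, the calcitonin receptor of quiescent cells, had -0.26 ± 0.45, *Cdh15* -0.36 ± 0.35, *Itga7* -0.81 ± 0.58 and *Spry1* 0.03 ± 0.42 (SE). *Foxo1*, a transcription factor of quiescence, was named for being read in fewer cells in all 6 mice (-13.2 points ± 13.2, SD, n = 6, and -7.85 points without Y5). *Sdc4*, a proteoglycan of the cell surface, had 0.07 ± 0.14. *Cdkn1b* and *Ccnd1*, an inhibitor and an activator of the cell cycle, had -2.21 ± 2.10 and -3.40 ± 1.65 (the latter called by DESeq2, adjusted p = 0.0425), and *Btg1*, an antiproliferative gene, -0.10 ± 0.27.

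Chemokine and inflammation genes (24 tested, median -0.38) and early response genes (31 tested, median -0.08) had 0 members at an unadjusted p under 0.05 in either direction. *Fos*, *Fosb* and *Egr1*, which dissociation induces, had log2 fold changes of -0.33 ± 0.26, -0.12 ± 0.19 and 0.21 ± 0.27 (SE), and the sign of each depended on the analysis. *Cxcl1* had -0.58 ± 0.36 and *Nfkbia* -0.08 ± 0.26. *Ccl11* and *Ccl19*, chemokines that few cells held, had -2.77 ± 2.31 and -2.20 ± 2.27. These values differed by age, with -6.95 in young and 0.64 in old mice for *Ccl11*, and -5.25 and 1.66 for *Ccl19*. The edgeR unadjusted p of the difference was 0.042 and 0.10, neither past the adjusted threshold. Their shares of cells were higher with *Mmp2* reads in both old mice, by means of 9.70 and 9.65 points. In the young mice the shares differed by -0.52 and -3.74 points.

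As a second view, the frequency of cells in which a gene was read was compared for the 5898 genes read in at least 10% of all cells, a measure that was chosen after the sums had been examined. This share was lower in the cells with *Mmp2* reads for 63.7% of the genes, with a median difference of -1.90 percentage points, -1.48 in the young and -2.59 in the old mice. It was lower in all 6 mice for 136 genes (2.31%) and higher in all 6 for 34 (0.576%). By mouse the median difference ran from -7.50 points in Y5 and -4.51 in O5 to 0.473 in Y7 and 1.36 in Y8, beside differences in median genes detected of -469.5, -344.5, 144 and 28. In the matched cells 22 genes were lower and 21 higher in all 6 mice and the median was -0.089 points, where both classes held equal numbers of cells. Matching on genes detected brings the mean share over genes close together in advance, so this balance is not a result.

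The largest mean differences were spread over unrelated functions. Towards lower shares these were *Ppfibp1*, a scaffold of the cell cortex (-22.2 points ± 15.8, SD), *Rbbp4*, a histone-binding subunit of chromatin complexes (-21.4 ± 13.2), *Bach1*, a haem-binding repressor (-21.2 ± 10.4), *Map4k4*, a stress-signalling kinase (-20.96 ± 11.79) and *Tgfb2*, each lower in 6 of 6 mice. *Bach1* was read in 20% against 52% of cells in Y4, 0 of 4 cells against 35% in Y5, 40.7% against 57.4% in Y7, 30% against 38.2% in Y8, 14.3% against 28.6% in O1 and 16.7% against 37.5% in O5. In the matched cells the difference was -17.6 points for *Bach1* and -20.7 for *Rbbp4*, and smaller for *Ppfibp1* (-13.8), *Tgfb2* (-10.8) and *Map4k4* (-10.1). Towards higher shares they were *Smarca5*, a chromatin-remodelling ATPase (18.9 ± 13.02), *Lin7a*, a polarity scaffold (18.4 ± 15.8), *Ets2*, a transcription factor (18.3 ± 22.1), *Vdac1*, the channel of the outer mitochondrial membrane (17.7 ± 21.4), and *Ppil4*, a prolyl isomerase (17.6 ± 20.8). The first 4 were higher in 6 of 6 mice and *Ppil4* in 5. In the matched cells *Ets2* had 10.8, *Lin7a* 11.99, *Ppil4* 21.1, *Vdac1* 21.6 and *Smarca5* 22.5 points. The 4 cells of Y5 carried much of several means, and without this mouse they were 9.92 for *Ets2*, 9.19 for *Vdac1*, 10.1 for *Ppil4* and -12.4 for *Tgfb2*.

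*Smarca5* was read in 70% against 30% of cells in Y4, 50% against 45% in Y5, 66.7% against 48.9% in Y7, 70% against 43.6% in Y8, 50.0% against 32.1% in O1 and 47.2% against 40.6% in O5. Its summed level had a log2 fold change of 0.24 ± 1.07 (SE). As these genes were chosen for their shares, the shares are a description. Limma on the shares, with an unadjusted p under 0.05 for 345 genes (77 higher, 268 lower), gave 0 of 5898 past the adjusted threshold.

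**Figure D5:**
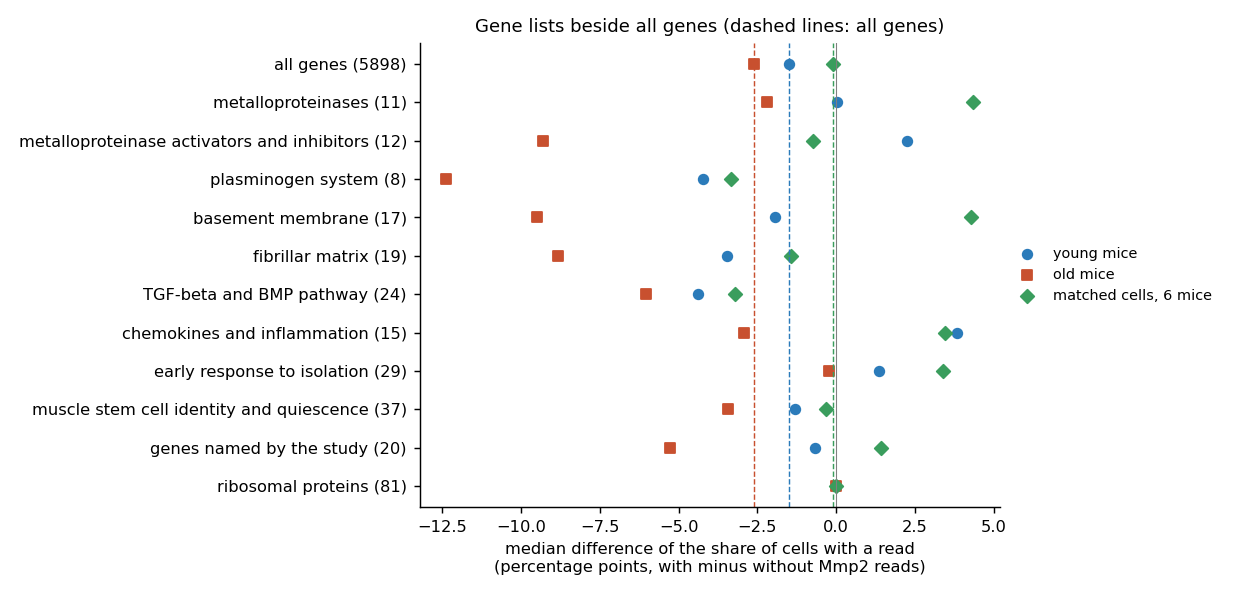
Median difference of the share of cells with a read (percentage points, with minus without *Mmp2* reads) over the genes of each list read in at least 10% of cells (their number in parentheses), in young mice (blue circles), old mice (orange squares) and the matched cells of all 6 mice (green diamonds); dashed lines are the medians of all genes. In old mice the plasminogen, basement membrane, fibrillar matrix and metalloproteinase inhibitor lists lie between -12.4 and -8.83 points beside -2.59 for all genes, and in the matched cells the lists shown, each of at least 8 such genes, lie between -3.34 and 4.35.

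Young and old mice were set side by side in a fit with one effect per age. In the young mice 0 of 9586 genes passed (0.0%), with 369 at an unadjusted p under 0.05 (8 higher, 361 lower), and in the old mice 0 passed (0.0%), with 189 (66 higher, 123 lower). The test of the difference between the ages also called 0 genes (0.0%), with 190 at an unadjusted p under 0.05, of which 154 had the higher change in old mice and 36 in young mice, beside a median of 0.92 over all genes. In the matched cells 56 such genes had the higher change in old mice and 67 in young mice, beside a median of -0.096. DESeq2 called 626 genes in the young and 116 in the old mice, and 140 for the difference. With 4 and 2 mice the exact permutation test cannot go below 0.125 and 0.5, so that the old mice give values without a test of their own for single measures.

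*Fam132b*, *Stard4*, *Igfbp5* and *Ctgf* were chosen by the lowest p over all 6 mice. *Dag1*, a gene the study names, is shown with them for an edgeR unadjusted p of 0.00591, which was not among the 5 lowest. This choice favours one direction at both ages, so their values by age are a description. The log2 fold changes in young and old mice were 0.76 and 0.49 for *Fam132b*, 2.22 and 2.28 for *Stard4*, -1.04 and -0.67 for *Igfbp5*, -4.14 and -3.57 for *Ctgf* and -0.88 and -0.79 for *Dag1*. *Adamts5* had -3.42 in the young and -0.27 in the old mice (unadjusted p of the difference 0.16), and *Adamts10* 1.37 and -0.21 (0.22). *Adamts4* had -0.15 in the young and 2.48 in the old mice (edgeR unadjusted p of the difference 0.025, not past the adjusted threshold). Its share of cells was nevertheless lower with *Mmp2* reads in O5 (22.2% against 31.2%). In the old mice the shares of cells of the basement membrane list had a median difference of -9.50 points and the plasminogen list of -12.4, beside -2.59 over all genes. The young mice gave -1.93 and -4.23 beside -1.48. In the matched cells of all 6 mice the medians were 4.27 for the basement membrane list, of the other sign, and -3.34 for the plasminogen list, beside -0.089 over all genes. In both old mice together there were 64 cells with and 60 without *Mmp2* reads, and 68.1% of genes had a lower share with *Mmp2* reads in O5, against 45.8% in O1.

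Markers of other cell types were read as a check of what the classes hold. A read of *Ptprc* (leukocytes), *Pecam1* (endothelium) or *Rgs5* (pericytes) was found in 1 of the 125 cells with and 10 of the 252 cells without *Mmp2* reads, 9 of the latter by *Rgs5*, and *Cdh5* and *Pdgfra* had none. Other genes of these lists were read in more cells, such as *Csf1r* in 8 with and 14 without, *Cd68* in 7 and 8, *Tek* in 14 and 13, *Acta2* in 16 and 68, and *Notch3* in 82 and 182. The 22 fibro-adipogenic genes together had 3484 to 5193 CPM over the mice in the class with and 3371 to 5393 CPM in the class without *Mmp2* reads, and *Pi16*, *Smoc2* and *Mfap5* were at 0 in both. The 12 mural genes had 312 to 814 CPM with and 497 to 1192 CPM without, with *Myh11* at 0 in both. Their member *Tagln*, a smooth muscle actin-binding protein, was lower in level and in share in all 6 mice, with 2.62 against 110 CPM in Y4, 6.11 against 143 in Y5, 24.2 against 69.3 in Y7, 13.6 against 35.3 in Y8, 0.392 against 8.53 in O1 and 3.63 against 142 in O5 (DESeq2 adjusted p = 0.00111). Without the 11 cells with a read of *Ptprc*, *Pecam1* or *Rgs5*, which leaves cells with reads of the other markers in place, 0 of 9516 genes passed, *Dag1* had -0.84 and *Igfbp5* -0.90. The endothelial, immune, tenocyte, Schwann cell and myofibre lists had 1, 2, 1, 2 and 3 tested genes, with 0 at an unadjusted p under 0.05.

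*Sparcl1*, a secreted relative of SPARC, and *S100a4*, a calcium-binding protein of motile cells, are named after their values were seen. *Sparcl1* was read in 3 of 125 cells with and 48 of 252 cells without *Mmp2* reads, being at 0 in both classes of O1, and *S100a4* in 5 and 42 cells. These counts pool mice of unequal class sizes. Within mice the mean differences of the shares were -15.8 and -13.55 points, and -11.5 and -8.15 points in the matched cells. In CPM, *S100a4* had 0 against 45.9 in Y4, 0 against 69.5 in Y5, 0 against 41.2 in Y7, 25.1 against 92.2 in Y8, 0 against 30.6 in O1 and 17.4 against 432 in O5. Both had an unadjusted p under 0.05 in edgeR (0.00172 and 0.00157, adjusted p = 0.990), and both were called by DESeq2 on all cells (adjusted p = 3.98e-05 and 4.85e-06) and on the matched cells (adjusted p = 0.0037 and 0.0066).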

How the data were processed

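The authors aligned the reads to GRCm38 with HiSat2 and counted them per gene with SeqMonk. They deposited raw counts of 25952 genes in 377 cells, and other cells named in the labels were not analysed here. Which annotation they counted on, and whether by strand, is not given in the sources used here. A cell belonged to the class with *Mmp2* reads if it held at least 1. Reads were summed per mouse and class and tested with edgeR 4.0.16 (R 4.3.3; TMM, filterByExpr, quasi-likelihood F test, mouse as block, Benjamini-Hochberg 0.05). *Mmp2* counted in library sizes but was not tested. The mouse pairs both classes, since each mouse gives 1 sum of each. SE is the log2 fold change divided by the root of F. DESeq2 1.42.0 and limma 3.58.1 (pseudocount 1 RPM) were alternatives. Values per mouse were compared by exact sign-flip permutation. Tables were handled in Python 3.11.15 (pandas 2.3.3, scipy 1.17.1, numpy 2.4.6).

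Alternatives were other size factors, no filter, thinning to 100000 reads, matching within 100 genes detected, at least 10 *Mmp2* reads, removal of cells with reads of other cell types' markers, no block and leaving out each mouse. Shares of cells, similarity, a filter of genes at 10% of cells and DESeq2 on matched cells were added after the data were seen. The classes, gene lists and rules were chosen with earlier results of these data known. Genes were named if they had the 5 lowest p or largest share differences in each direction, if the study names them, or as high members of lists, of which a part is named; partners of *Mmp2*, *Lama2*, *Vcam1*, *Calcr*, *Itga7* and the list members whose share moved one way in all 6 mice were added after the fit. Edges of genes come from GENCODE M21. The fit was tested on simulated data with the same dispersion for all genes: at a dispersion of 0.05 it recovered 186 of 200 genes changed by 1 (log2) with 6 false calls, and at 1.68 it recovered 0. Genes that overlap or resemble others are uncertain.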

Additional observations from a re-analysis of the deposited data

Results flagged for a closer look

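Of 46 sets of values over 4 young or 6 mice, 4 held a mouse whose gap to the nearest other was past Dixon's 95% critical value, where chance flags about 1 in 20. Cells with *Mmp2* reads of Y8 were more similar to young cells than those without, by 0.0136, and the other 5 mice had differences below 0. The other 3 sets have Y5 apart, whose class with *Mmp2* reads holds 4 cells: the share of cells with a read was higher by 25.0 points for *Fosb* and 60 points for *Vdac1*, and lower for *Tgfb2* (-62.5 points).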

How the results depend on the processing

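Mice were paired throughout, and without the replicate block edgeR also called 0 genes in each of the 4 comparisons (smallest adjusted p 0.064). RLE factors, no filter, limma, thinning, matching, at least 10 *Mmp2* reads, removal of marker cells, the 10% filter and each left-out mouse gave 0 calls too. The median log2 fold change over the genes tested ran from -0.88 to -0.39 (without Y5) when a mouse was left out. DESeq2 called 533 genes over all mice, 626 in young mice, 116 in old mice and 140 for the difference, and on matched cells 136, 124, 167 and 151; the cause was not tested. Genes lower in share in all mice numbered 22 (higher 21) in the matched cells and 161 (higher 54) with at least 10 *Mmp2* reads. They numbered 192 to 326 (higher 57 to 93) when a mouse was left out, which asks for 5 mice only. Genes detected differed by -219 to -96, reads per cell by -24650 to 9567 (3830 without Y5), and similarity by 0.00298 in matched cells.

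Of the 72 genes whose fitted changes are described, 47 kept their sign under every alternative run, and the values of the other sign of the other 25 are as follows, as log2 fold changes. DESeq2 gave *Btg1* 0.032, *Fosb* 0.014, *Itgb1* 0.025 and *Nfkbia* 0.043, and RLE factors 0.031, 0.014, 0.025 and 0.043. Limma gave *Ccl11* 0.12, *Ccl19* 0.16, *Fosb* 0.47, *Lamc3* 0.076, *Ltbp1* 0.12, *Nfkbia* 0.11, *Ets2* 0.87 and *Calcr* 0.22. Thinning gave *Spry1* -0.019 and *Col4a2* 0.053. At least 10 *Mmp2* reads gave *Col5a3* -0.68 and *Adamts4* -0.47. No block gave *Col5a3* -0.041 and *Nfkbia* 0.023, and the 10% filter *Nfkbia* 0.00381. Matched cells, by edgeR and DESeq2, gave *Fosb* 0.015 and 0.00851, *Fos* 0.59 and 0.59, *Col4a1* 0.40 and 0.40, *Col4a2* 0.24 and 0.23, *Sparc* 0.066 and 0.0587, *Cdh15* 0.13 and 0.12, *Itgb1* 0.78 and 0.77, *Adamts1* 0.29 and 0.28, *Cxcl1* 0.076 and 0.065, *Col18a1* 0.68 and 0.77, and *Mmp14* 0.73 and 0.70. Leaving out each mouse gave ranges with both signs for *Btg1* (-0.19 to 0.17), *Calcr* (-0.43 to 0.11), *Col4a2* (-0.32 to 0.11), *Col5a3* (-0.14 to 0.50), *Egr1* (-0.023 to 0.45), *Fosb* (-0.28 to 0.00677), *Furin* (-0.20 to 0.91), *Nfkbia* (-0.31 to 0.10), *Smarca5* (-0.43 to 0.96) and *Spry1* (-0.036 to 0.15). Depth limits genes read in few cells, and Y5, with 4 cells with *Mmp2* reads, has the least precise values.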
